A study of Mus musculus with 16 samples.

Results

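MHC class II presentation genes were followed through 16 mouse osteosarcomas. The genes were chosen by name from the table of raw counts and comprise H2-Aa, H2-Ab1, H2-Eb1, Cd74, Ciita, H2-DMa and H2-DMb1, which is 7 of the 25054 genes in the table. All tumors arose in mice of the genotype OsxCreERT2+/-;p53fl/fl;Rb1fl/fl, in which the promoter of Osterix, a gene of cells that form bone, drives a Cre that tamoxifen activates. The mice were older than 6 months, of both sexes, and had received tamoxifen (400 ug/g) when 1 month old. Arid1afl/fl was added in the KO group, which holds 8 tumors of 8 mice, called Massa, Medusa, Montana, Ohio, Prince, Grilka, Zelda and Oregon, without a body site. The WT group lacks this allele and holds 8 tumors of 4 mice, with 4 tumors from N42 (right pelvis, right femur, left limb and left shoulder), 2 from N43 (spine and pelvis), 1 from N215 (right hind limb) and 1 from N25 that is labeled as lung. Tumors of 1 mouse were treated as independent in the main test, so its p-values do not account for the mice they share.

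MHC class II molecules present peptides, mostly from proteins taken up by the cell, to CD4+ T cells. An alpha and a beta chain form the molecule, the invariant chain (Cd74) escorts it and fills its groove, cathepsins cut the invariant chain, and H2-DM exchanges the remaining fragment for a peptide. Dendritic cells, B cells and many macrophages make these proteins, while in most other cells the coactivator Ciita has to be induced, for example by interferon gamma. RNA from a whole tumor holds every cell type in it, so more cells of a type cannot be told apart from more RNA per cell.

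The depth differed between the groups. Between 1109487 and 15059640 counts fell on genes in the KO tumors and between 7806160 and 16962329 in the WT tumors. A count of 3 equals 6.69 CPM (counts scaled to a common library size) in Massa, 4.03 CPM in Grilka and 0.146 to 0.340 CPM in the WT tumors, and such limits cover counting error only. The labeled tissue was checked against 6 osteoblast genes, whose summed level was between 418 and 41192 CPM in KO and between 1706 and 51169 CPM in WT. The sum was lowest in Prince. Its largest part in every tumor was Col1a1, as in Massa with 1938 of 2070 CPM. Sp7, a further gene of this list, was 0 CPM in Massa, 0.166 in Prince, 3.83 in Montana and 5.49 in the N25 tumor. Elsewhere Sp7 was at least 11.7 CPM. Marker genes of other tissues were prominent in several tumors. Lung alveolar genes summed to 25946 CPM in the N25 tumor and 10338 CPM in Massa and to at most 9.40 CPM elsewhere, and skeletal muscle genes summed to 112300 CPM in Oregon and 58035 CPM in Montana. Epithelial genes summed to 1247 CPM in Prince, 587 CPM in the N25 tumor and 350 CPM in Massa and to at most 25.5 CPM elsewhere, and erythroid genes were highest in Zelda at 707 CPM.

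None of the 7 class II genes passed the test between KO and WT. With edgeR's quasi-likelihood test and Benjamini-Hochberg adjustment at 0.05, 618 of 15413 genes tested were called, which is 4.01% of them, and 0 of the 7 class II genes were among them. Also 0 of the 7 had an unadjusted p under 0.05, as 3546 of all 15413 genes tested did. DESeq2 called 0 of the 7 while it called 2517 genes in all. The log2 fold changes of all 7, KO minus WT, lay above 0. Their median was 0.55, and the median over all genes tested was 0.10. Without Zelda, however, only 3 of the 7 lay above 0 and their median was −0.06, and without both Zelda and the N25 tumor 6 of 7 lay above 0, with a median of 0.42. Without the N25 tumor alone all 7 lay above 0, with a median of 1.06, and 0 were called. In that fit 3 of 7 had an unadjusted p under 0.05, as did 3884 of all 15457 genes tested. In all 7 genes the KO and WT tumors overlapped.

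**Figure D1:**
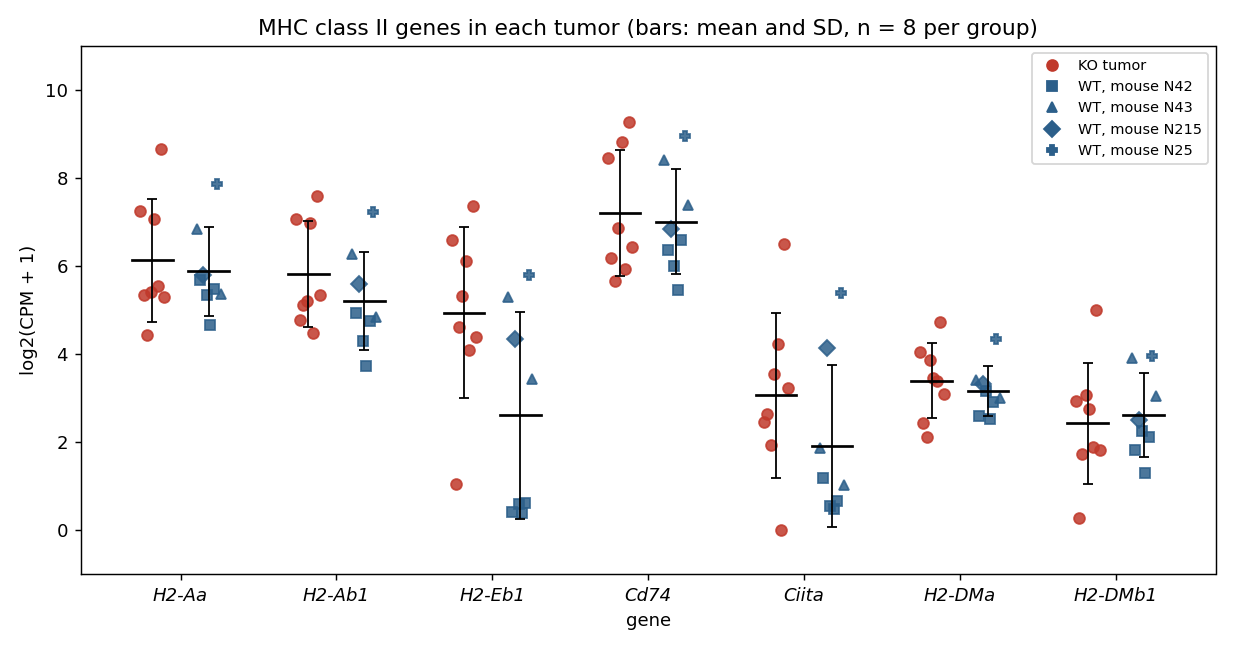
Level of each class II gene in every tumor, as log2(CPM + 1) on the vertical axis, with KO tumors as red circles and WT tumors as blue symbols whose shape gives the mouse. Black bars show mean and SD (n = 8 tumors per group). The groups overlap in every gene, and the 4 N42 tumors lie together near the bottom for H2-Eb1.

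H2-Aa encodes the alpha chain of the A molecule (ENSMUSG00000036594, mm10, chr17:34282744-34287823, minus strand). Its level was 20.7 CPM in the lowest, 43.7 CPM in the median and 403 CPM in the highest KO tumor. In WT it was 24.4, 47.1 and 231 CPM. The medians were close together, and the highest values belonged to Zelda and to the N25 tumor. The log2 fold change of H2-Aa, KO minus WT, was 0.55 (SE 0.60, 95% interval −0.63 to 1.73, edgeR adjusted p = 0.625).

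H2-Ab1 encodes the beta chain that pairs with it (ENSMUSG00000073421, chr17:34257689-34269419, plus strand). It ranged from 21.5 CPM through a median of 37.7 to 191 CPM in KO, and from 12.4 through 28.7 to 148 CPM in WT. The log2 fold change of H2-Ab1 was 0.65 (SE 0.56, 95% interval −0.45 to 1.75, edgeR adjusted p = 0.519). H2-Aa and H2-Ab1 stayed within a narrow ratio of each other. Per kilobase of exon, the level of H2-Aa divided by that of H2-Ab1 was between 0.412 and 1.45 in the 16 tumors.

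H2-Eb1 encodes the beta chain of the second class II molecule, E (ENSMUSG00000060586, chr17:34305867-34316674, plus strand), and it was the gene of the set with the widest range. In KO it was 95.9 CPM in Massa, 1.06 in Medusa, 23.5 in Montana, 39.2 in Ohio, 68.4 in Prince, 16.1 in Grilka, 163 in Zelda and 19.9 in Oregon. In WT it was 38.3 CPM in the N43 spine tumor, 9.78 in the N43 pelvis tumor, 19.4 in the N215 tumor and 54.5 in the N25 tumor. In the N42 tumors it was 0.340 CPM in the pelvis, 0.511 in the femur, 0.303 in the limb and 0.531 in the shoulder. All 4 tumors of N42 were therefore nearly without H2-Eb1, with 7, 9, 6 and 9 counts, and so was Medusa with 5 counts. Their mean in N42 was 0.422 ± 0.117 CPM (SD, n = 4 tumors of 1 mouse), while the other 11 tumors held 9.78 to 163 CPM.

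The other beta chain was less reduced in these tumors. H2-Ab1 was between 12.4 and 29.8 CPM in the same 5 tumors and between 21.5 and 191 CPM in the other 11, so that they were 5 of the 7 lowest in H2-Ab1 as well. Of the counts on both beta chain genes, H2-Eb1 took 1.13% in the N42 pelvis tumor (95% exact binomial interval 0.455 to 2.31), 2.68% in the femur, 2.39% in the limb and 1.99% in the shoulder tumor, and 3.88% in Medusa (1.27 to 8.81). In the remaining 11 tumors it took between 26.2% and 52.2%. No tumor lay between these ranges, and the split ran along mice, since both N43 tumors belonged to the upper range.

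**Figure D2:**
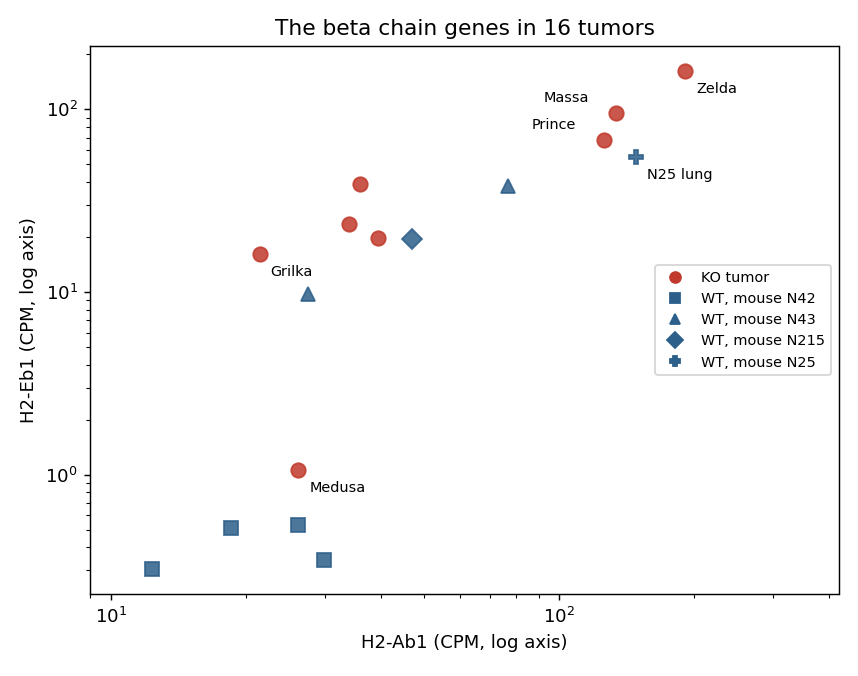
H2-Eb1 against H2-Ab1 in the 16 tumors, in CPM on log axes, with KO tumors as red circles and WT tumors as blue symbols by mouse. The 4 N42 tumors and Medusa lie between 0.303 and 1.06 CPM of H2-Eb1, apart from the other 11 tumors at 9.78 CPM or more.

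Between genotypes, H2-Eb1 had a log2 fold change of 1.78 (SE 1.05, 95% interval −0.28 to 3.85, edgeR adjusted p = 0.321), the largest estimate of the 7. An exact two-sided permutation test over tumors gave p = 0.0427 for H2-Eb1 (n = 8 and 8), which is not adjusted for the 7 genes and treats the 4 N42 tumors as independent. For the other members the same permutation test gave p from 0.27 (Ciita) to 0.76 (Cd74). Without the N42 tumors the log2 fold change was 0.85. H2-Ea, the alpha chain partner of H2-Eb1, is known not to be expressed in strains of the b haplotype such as C57BL/6, and the haplotype of these mice is not given in the sources used here. It had 76 counts in the N25 tumor, 20 in Prince, 13 in the N43 spine tumor, 12 in the N42 pelvis tumor, 11 in Medusa, 6 in the N215 tumor and 0 to 3 in the others. Zelda thus had 2397 counts on H2-Eb1 and 0 on H2-Ea, whereas Medusa had 5 on H2-Eb1 and 11 on H2-Ea.

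Cd74 encodes the invariant chain (ENSMUSG00000024610) and was the most abundant of the 7 genes per length. Its median per kilobase of exon was 60.2 CPM in KO and 62.0 CPM in WT, against 11.5 and 12.4 for H2-Aa. Within single tumors the level of Cd74 per kilobase was 2.99 to 9.40 times that of H2-Aa. Cd74 itself was 49.2 CPM in the lowest, 101 in the median and 618 CPM in the highest KO tumor, and 43.2, 104 and 497 CPM in WT. Its log2 fold change was 0.36 (SE 0.62, 95% interval −0.85 to 1.57, edgeR adjusted p = 0.770), so neither direction was resolved.

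Ciita, the coactivator on which class II transcription depends (ENSMUSG00000022504, chr16:10480059-10528418, plus strand), was the least abundant per length. Its median per kilobase was 0.717 CPM in KO and 0.122 CPM in WT. In KO, Ciita was 4.46 CPM in Massa (2 counts), 5.28 in Medusa, 2.81 in Montana, 10.7 in Ohio, 17.7 in Prince, 89.6 in Zelda and 8.39 in Oregon, and it had 0 counts in Grilka. In WT it was 40.6 CPM in the N25 tumor and 16.7 CPM in the N215 tumor, and between 0.404 and 2.64 CPM in the 6 tumors of N42 and N43. Thus 7 of 8 KO tumors were above those 6 WT tumors, 6 of them with more than 3 counts, while the N25 and N215 tumors were above most KO tumors.

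Over all 16 tumors the log2 fold change of Ciita was 1.18 (SE 1.05, 95% interval −0.88 to 3.25, edgeR adjusted p = 0.535). Without the N215 and N25 tumors it was 4.15 (SE 0.98, adjusted p = 0.0189) and Ciita was the 1 gene of the set that passed, in a fit that called 1518 of 16040 genes, which is 9.46%. That fit leaves out the 2 WT tumors with the most Ciita, so its adjusted p cannot be read as a test of the genotype. It keeps tumors of only 2 WT mice and treats them as independent. Without Zelda the log2 fold change of Ciita was −0.093, so the call and the direction both depended on a few tumors. Without the N25 tumor alone it was 2.47 and did not pass.

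H2-DMa and H2-DMb1 encode the 2 chains of H2-DM (ENSMUSG00000037649, chr17:34119541-34139101, and ENSMUSG00000079547, chr17:34153072-34160230, both on the plus strand). H2-DMa was the steadiest of the 7 genes, at 3.32, 9.72 and 25.7 CPM in the lowest, median and highest KO tumor and 4.80, 7.51 and 19.3 CPM in WT. Its log2 fold change was 0.37 (SE 0.41, 95% interval −0.44 to 1.18, edgeR adjusted p = 0.635). H2-DMb1 was 0.211, 4.21 and 31.0 CPM in KO and 1.47, 4.20 and 14.7 CPM in WT. Its log2 fold change was 0.23 (SE 0.69, 95% interval −1.14 to 1.59, edgeR adjusted p = 0.884). The estimate for H2-DMb1 changed sign under several alternatives. The lowest value was again in Medusa, where H2-DMb1 had 1 count beside 21 on H2-DMa. H2-DMb1 took 4.55% of the counts on both genes there (95% exact binomial interval 0.115 to 22.8) and between 22.2% and 59.3% in the other tumors. H2-DMb2 is a near copy of H2-DMb1 and H2-Eb2 resembles H2-Eb1, so that reads shared by the copies make the split between them uncertain. An annotated antisense transcript also overlaps the start of H2-Eb1, and since the strand setting is not given their reads cannot be told apart.

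The tumors were ordered alike by most of the genes. Zelda held the highest level of all 7 genes, the N25 tumor ranked between 2 and 4 of 16, and the N42 limb tumor ranked between 14 and 16. Pearson's r between pairs of members, on log2 CPM over the 16 tumors, was between 0.48 (Ciita and H2-DMb1) and 0.94 (H2-Aa and Cd74), and Spearman's rho was between 0.49 and 0.89. These are descriptions over tumors that partly share a mouse, and Zelda and the N25 tumor weigh in each of them.

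The promoters of some members have letters in common. Of the 7 genes, 4 had a RefSeq promoter window (GRCm38.p6, 250 bases before to 50 after a start), namely H2-Aa, H2-Eb1, H2-DMa and H2-DMb1. Class II promoters are known for an X box, bound by the RFX complex, and a Y box, bound by NF-Y, at a fixed distance from each other. Those of H2-Aa and H2-Eb1 are shown because the levels of these genes parted in 5 tumors, with the letters GNAAC, part of the X box, and ATTGG, the Y box CCAAT read on the other strand, in capitals. H2-Ob, which was nearly absent outside Zelda and the N25 tumor, is shown beside them. The H2-DMb1 window has the same letters but is not printed, since its RefSeq start lies downstream of the GENCODE start and the letters fall within the gene interval given above.
H2-Aa (chr17:34287852-34287919, minus strand): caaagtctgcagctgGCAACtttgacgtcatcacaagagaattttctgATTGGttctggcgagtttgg
H2-Eb1 (chr17:34305761-34305827, plus strand): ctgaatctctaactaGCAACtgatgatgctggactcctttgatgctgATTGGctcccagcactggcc
H2-Ob (chr17:34238803-34238867, plus strand): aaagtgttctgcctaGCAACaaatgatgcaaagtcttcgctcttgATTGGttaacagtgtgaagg

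The 2 capitalized parts stood 28 bases apart in H2-Aa and H2-DMb1, 27 in H2-Eb1 and 25 in H2-Ob. GNAAC followed by ATTGG after 20 to 35 bases, searched on both strands, occurred in 2.67% of all 32851 windows, and this pattern was chosen after the sequences were seen. CCAAT on either strand alone occurred in 37.4% of windows. A longer X box pattern, CCNNGNNAC followed after 3 further bases by TG, was in 3.94% of windows, among them those of H2-DMb1 and H2-Ob and 1 of the 2 windows of H2-DMa. Neither window of H2-DMa held GNAAC and ATTGG at that spacing. Both of these windows (chr17:34122582-34122881 and chr17:34125268-34125567) lie within the gene interval given above, downstream of the GENCODE start, whose own promoter was not searched. Both H2-Eb1, nearly absent in 5 tumors, and H2-Aa, present in all 16, held the pair of motifs in the reference genome, and the sequence in these mice was not read.

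The genes that act with the class II molecule did not share one direction. Of 6 genes of peptide and invariant chain processing, all had estimates below 0 and 4 were called lower in KO, beside 2.15% of all genes tested. Cathepsin S (Ctss), which cuts the invariant chain, fell by 2.12 on the log2 scale (SE 0.52, edgeR adjusted p = 0.0322), and Ctsb fell by 1.89 (SE 0.38, adjusted p = 0.0126). Legumain (Lgmn), a lysosomal protease, fell by 1.80 (SE 0.46, adjusted p = 0.0372), and Ifi30, a lysosomal thiol reductase, fell by 1.69 (SE 0.39, adjusted p = 0.0253). Ctsl and Ctsd had log2 fold changes of −1.23 and −0.48 and did not pass. With counts summed per mouse, 0 of the 6 were called and their median log2 fold change was −1.27, against −1.74 over tumors. Leaving out the N42 tumors also left 0 calls, and leaving out 1 tumor gave 1 (without Oregon, the N42 femur or the N42 shoulder tumor) to 4. Macrophage genes were high in the same tumors. In the 6 tumors of N42 and N43 the processing genes summed to 1591 to 2511 CPM and the macrophage genes to 1350 to 2045 CPM, and in the other 10 tumors to 375 to 905 CPM and 223 to 675 CPM. The part of macrophages in this difference was not tested.

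Of 16 regulators of class II transcription, 1 was called lower (2.15% of all genes tested were) and 0 were called higher (1.86% were). Estimates lay above 0 for 9 of them. Ifngr1, the ligand-binding chain of the interferon gamma receptor, fell by 1.36 on the log2 scale (SE 0.30, edgeR adjusted p = 0.0179). No regulator was called by any of the fits that take the shared mice into account (counts summed per mouse, the mouse as a random effect, 1 tumor per mouse), nor without the N42 tumors. The 3 subunits of the RFX complex had log2 fold changes of 1.20 (Rfx5, adjusted p = 0.144), 1.02 (Rfxank, adjusted p = 0.101) and 0.67 (Rfxap, adjusted p = 0.220), none past the threshold. Of 9 class I genes measured for contrast, 7 had estimates below 0 and 1 was called lower, beside 2.15% of all genes tested. It was B2m, the light chain of class I molecules, lower by 1.83 (SE 0.49, edgeR adjusted p = 0.0444). The call for B2m was lost with RLE or upper-quartile scaling and without the filter on low counts. With counts summed per mouse, the mouse as a random effect, 1 tumor per mouse or without N42, 0 class I genes were called. Leaving out 1 tumor gave 0 class I calls for Medusa, Montana, Ohio, Grilka, Oregon or any N42 or N43 tumor, and 1 otherwise. Marchf1, a ubiquitin ligase that removes class II molecules from the surface, was estimated at −0.32 on the log2 scale (adjusted p = 0.841). Its median was 3.19 CPM in KO and 20.5 CPM in WT. Zelda held 105 CPM of Marchf1. Every other KO tumor held 2.23 to 5.15 CPM, below all WT tumors at 10.8 to 30.5 CPM. The mean of 16.1 CPM in KO, against 21.1 CPM in WT, thus rested largely on Zelda. In Massa and Grilka the level of Marchf1 rests on 1 and 2 counts.

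**Figure D3:**
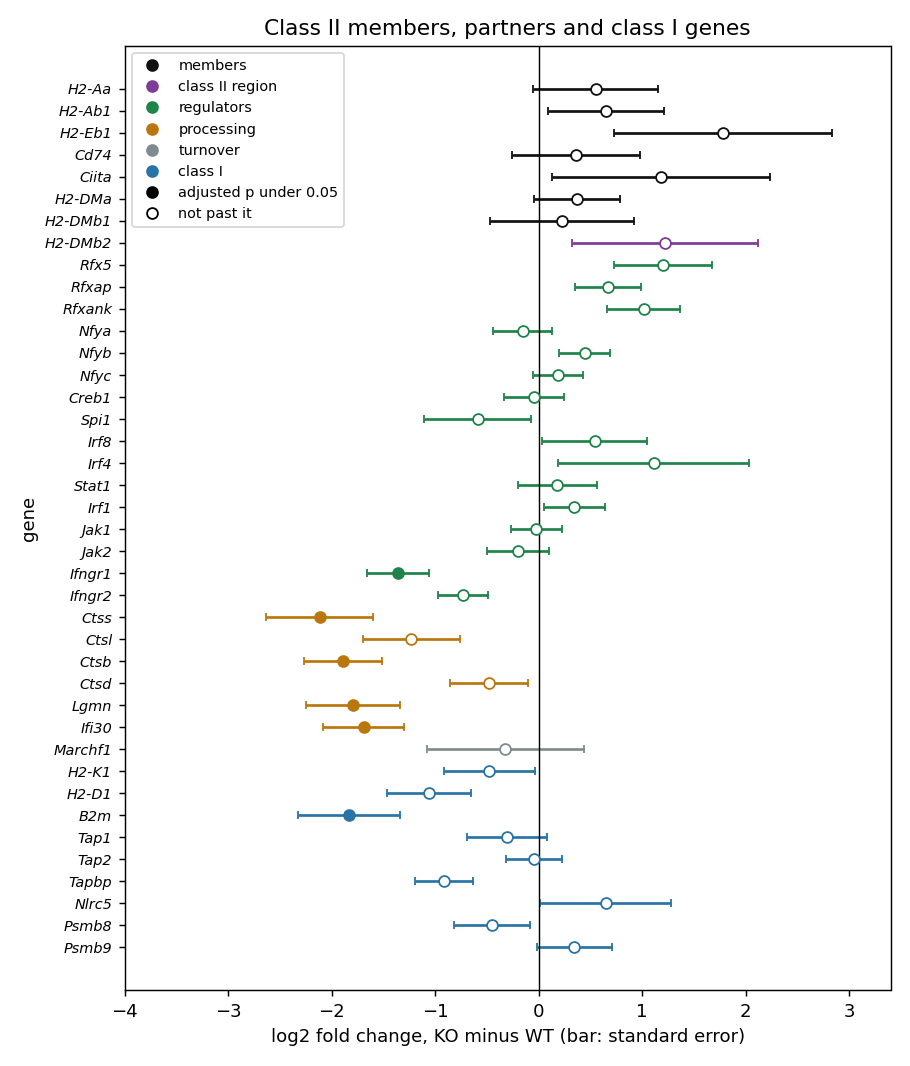
Log2 fold change between KO and WT tumors (horizontal axis, KO minus WT, bars give the standard error) for the class II genes and the lists of partners, with filled symbols past an edgeR adjusted p of 0.05. The 7 class II genes lie above 0 with wide errors and open symbols, and the 6 processing genes lie below 0, 4 of them filled.

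The other genes of the class II region were rare. H2-DMb2 was tested, with a log2 fold change of 1.22 (SE 0.90, edgeR adjusted p = 0.440), and H2-Oa, H2-Ob, H2-Eb2 and H2-Ea were too low to be tested. H2-Oa and H2-Ob form H2-DO, an inhibitor of H2-DM made mainly by B cells. H2-Oa was 21.0 CPM in Zelda, 4.73 CPM in Prince and 3.68 CPM in the N25 tumor, and under 1 CPM in all others. H2-Ob was 107 CPM in Zelda, 16.1 CPM in the N25 tumor and 2.07 CPM in Prince, and under 1 CPM in all others. H2-Eb2 was 24.7 CPM in Zelda, 3.81 CPM in the N25 tumor and under 1 CPM elsewhere.

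Markers of immune cells varied with these levels. Summed over 6 B cell genes, of which Cr2, Ms4a1 and Pax5 were the most abundant, Zelda had 1102 CPM, the N25 tumor 108 CPM and the other 14 tumors between 0.280 and 9.87 CPM. Ptprc, which marks leukocytes, was 845 CPM in Zelda and 230 CPM in the N25 tumor, and 12.2 to 103 CPM in the others. The T cell list summed to 82.7 CPM in Zelda and to 1.34 to 20.0 CPM in the other 15 tumors. The dendritic cell list, led by Zbtb46 and Itgax, summed to 95.8 CPM in Zelda, 97.4 CPM in the N25 tumor and 9.40 to 52.6 CPM in the others. Within the dendritic cell list, Itgax was 29.2 CPM in Zelda and 35.4 CPM in the N25 tumor, against at most 19.2 CPM elsewhere. Zbtb46 did not set them apart, at 29.6 and 35.4 CPM beside 34.1 CPM in Oregon, and Batf3 was highest in the N215 tumor. The 2 tumors with the most class II RNA were thus the 2 with the highest B cell and dendritic cell sums and the most Ptprc RNA. The part of those cells in the class II level was not tested. Massa and Prince came next in Cd74, at 350 and 449 CPM, with B cell sums of 6.69 and 1.58 CPM and Ptprc at 17.8 and 29.9 CPM. Massa's B cell sum is 3 counts of Cr2. Both tumors were among the 3 with high epithelial sums, at 350 CPM in Massa and 1247 CPM in Prince, and Massa also had 10338 CPM of lung alveolar genes. Massa's Cd74 rests on 157 counts. The N43 spine tumor was close behind it at 341 CPM of Cd74, with an epithelial sum of 1.59 CPM and a B cell sum of 0.934 CPM. The part of epithelial and lung tissue in the class II level was not tested.

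**Figure D4:**
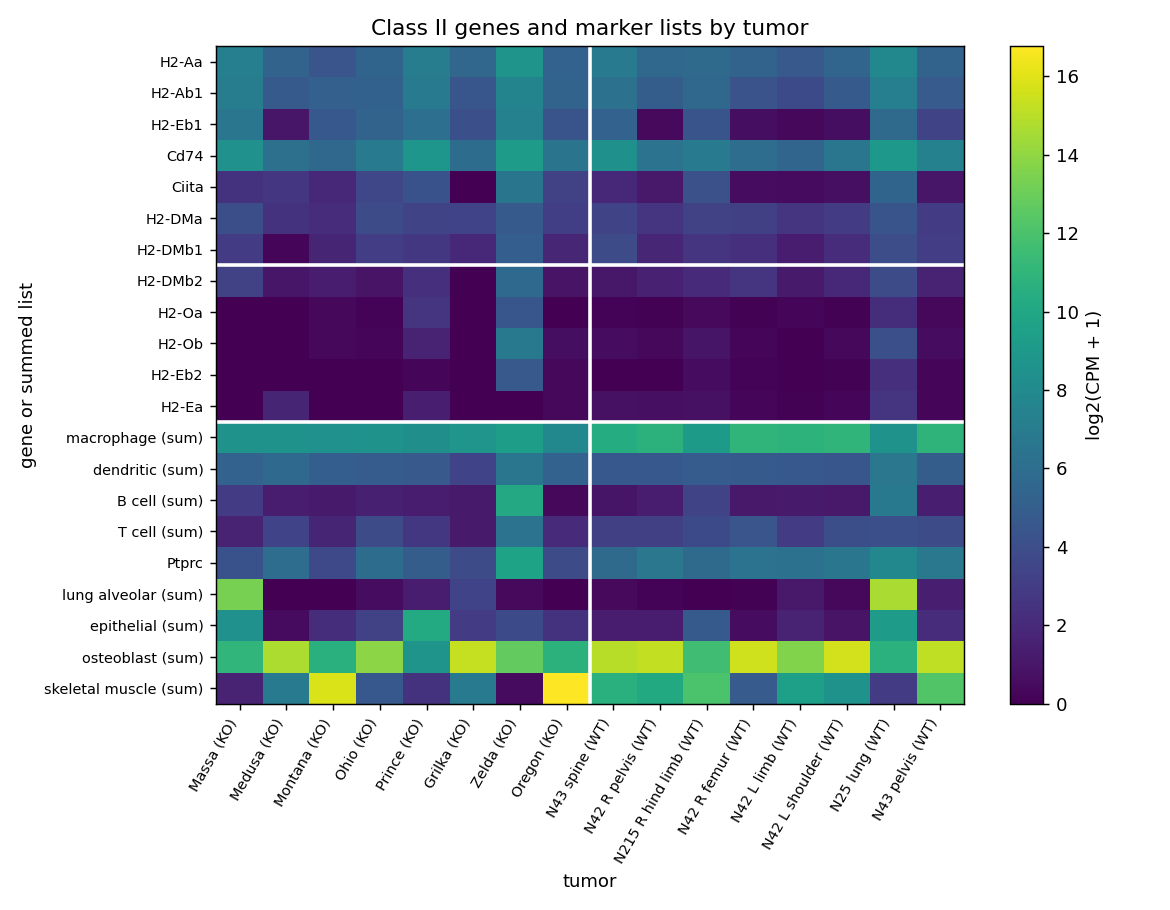
Class II genes (top 7 lines), other genes of the class II region (next 5) and summed marker lists (below) in each tumor, colored by log2(CPM + 1). Zelda stands out in all 7 class II genes, in H2-Ob and in the B cell list, whereas Medusa and the 4 N42 tumors are dark for H2-Eb1.

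Macrophage genes differed between the groups. Of 14 macrophage genes, 11 were called lower in KO, beside 2.15% of all genes tested. Cx3cr1 was the 1 called higher, beside 1.86% of all genes, with a log2 fold change of 2.53 (SE 0.69, edgeR adjusted p = 0.0461). The median of the 14 was −2.07 on the log2 scale. Mrc1 fell by 2.33 and Csf1r by 2.03. With counts summed per mouse, or without the N42 tumors, 0 of the 14 were called, with medians of −1.62 and −1.50, and leaving out 1 tumor gave 5 (without the N42 femur tumor) to 11 called lower. The summed level was 223, 381 and 675 CPM in the lowest, median and highest KO tumor and 382, 1784 and 2045 CPM in WT. The 6 tumors of N42 and N43 made up the upper end, and the N25 and N215 tumors lay within the KO range.

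Set against this sum, Cd74 and H2-Aa had higher median ratios in KO, where the sum itself was lower. The median of Cd74 alone was 101 CPM in KO and 104 CPM in WT, and that of H2-Aa 43.7 and 47.1 CPM. Any gene with like levels in both groups would give a higher ratio in KO. Cd74 divided by the macrophage sum was 0.138, 0.341 and 1.38 in the lowest, median and highest KO tumor, and 0.0237, 0.0654 and 1.30 in WT. All 8 KO tumors were above the WT median, and 5 of 8 were above the highest of the N42 and N43 tumors, at 0.253. For H2-Aa the ratio was 0.0578, 0.140 and 0.597 in KO and 0.0134, 0.0251 and 0.604 in WT, and 7 of 8 KO tumors were above the highest N42 or N43 tumor, at 0.0847. A ratio within a tumor does not depend on the scaling, and no test was run on it. Divided by Ptprc instead, Cd74 was 0.732, 4.26 and 19.6 in the lowest, median and highest KO tumor. In WT it was 0.538, 1.305 and 6.375, and Zelda (0.732) and Medusa (1.165) were below that WT median. The highest WT ratio to the macrophage sum belonged to the N25 tumor in both genes. The comparisons with N42 and N43 leave out the N25 and N215 tumors. The N215 ratios, 0.202 for Cd74 and 0.0978 for H2-Aa, lay within the KO range.

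**Figure D5:**
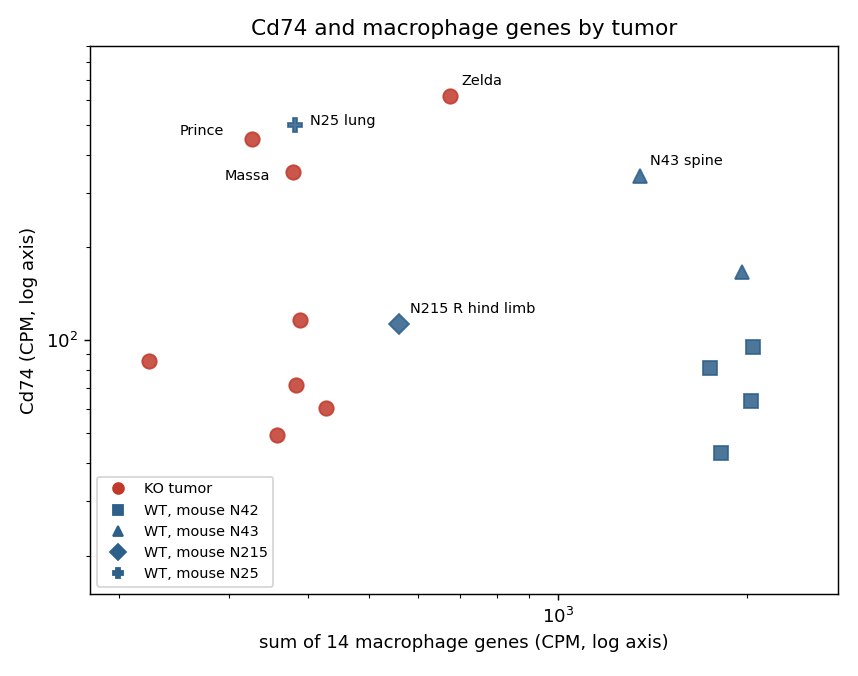
Cd74 (vertical, CPM) against the sum of 14 macrophage genes (horizontal, CPM), both on log axes, with KO tumors in red and WT tumors in blue by mouse. The N42 and N43 tumors lie to the right, at 1350 to 2045 CPM of macrophage genes and between 43.2 and 341 CPM of Cd74, while the KO tumors lie at 223 to 675 CPM of macrophage genes and between 49.2 and 618 CPM of Cd74.

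The body site was given for WT tumors only. Between 3 WT tumors of spine or pelvis and 4 of limb or shoulder, 0 of 17131 genes were called by edgeR (0%), 641 had an unadjusted p under 0.05 and DESeq2 called 33. Of the 7 class II genes 0 were called by either tool, though DESeq2 gave no p for Ciita. In both fits 6 had estimates above 0, meaning higher in spine or pelvis. Cd74 had the smallest p, with a log2 difference of 1.33 (SE 0.51, edgeR adjusted p = 0.974). The N43 spine tumor had 341 CPM of Cd74 and the N43 pelvis tumor 166 CPM, while the N42 pelvis tumor had 81.0 CPM, within the 43.2 to 113 CPM of the 4 limb and shoulder tumors. Site and mouse overlapped in these tumors, and with the mouse as a block the log2 difference of Cd74 was 0.28.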

How the data were processed

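RNA of 16 tumors was sequenced after ribosomal depletion. The authors aligned reads with Novoalign 2.08.01 to mm10, counted them per gene with USeq and deposited raw counts, without normalization, for 25054 genes. The strand setting is not given in the sources used here. DESeq2 1.26.0, per the labels, was used by the authors.

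From these counts, edgeR 4.0.16 in R 4.3.3 compared KO with WT, and spine or pelvis with limb or shoulder within WT, by two-sided quasi-likelihood tests (TMM, filterByExpr with 10 as minimum count and 15 as minimum total, Benjamini-Hochberg over all genes tested, threshold 0.05). The SE of a log2 fold change was derived from the estimate and the F statistic of its edgeR test. The 95% intervals of the log2 fold changes use a normal approximation and are somewhat narrower than that test implies. CPM are counts over TMM-normalized library sizes, and log2 CPM used a prior count of 2. Exon lengths and positions came from GENCODE vM21, matched by identifier. Exact permutation tests used all 12870 splits of the tumors. Alternatives included DESeq2 1.42.0 and limma 3.58.1. The fits were tested on simulated counts, drawn independently for each tumor, so that check does not cover the mice shared by WT tumors.

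Animal codes in the labels gave the mice. The N25 tumor, highest of the WT tumors in all 7 genes, is labeled as lung although the study describes no metastasis in WT mice. Fits were made with and without this tumor. No batch or date is given, so nothing could be recomputed within batches. The members and gene lists were chosen with earlier results of these data known. All members are named, as are pathway genes past the threshold, the 5 other class II region genes, at most the 3 most abundant genes of a marker list, and the 10 genes nearest in pattern, of which 1 is not reported here. The RFX subunits, Ctsl, Ctsd, Marchf1, Cx3cr1 and Sp7 fall outside this rule and were named after their values were seen. H2-Ea and Marchf1 are the table's symbols for genes listed as H2-Ea-ps and March1.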

Additional observations from a re-analysis of the deposited data

Results flagged for a closer look

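H2-Eb1 in Medusa stood apart from the other KO tumors. At 1.06 CPM (5 counts) it lay below the next lowest KO tumor by a gap of 0.529 of the whole KO range on the log2 scale. Both groups of 8 tumors were examined for each of the 7 genes, 14 groups in all, and chance flags about 1 in 20 such groups. Medusa was also lowest in H2-DMb1 (0.211 CPM), while its H2-Ab1 (26.2 CPM) and Ptprc (61.5 CPM) lay within the range of the other KO tumors.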

How the results depend on the processing

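No paired analysis was possible because KO and WT tumors share no mouse. In the 28 alternatives for KO and WT, calls over all genes numbered 2517 with DESeq2, 10 with counts summed per mouse, 17 with limma-voom and the mouse as a random effect, 7 with 1 tumor per mouse, 1518 without N215 and N25, 8 without N42 and, in an alternative added after the data were seen, 1633 without Zelda and N25. Leaving out 1 tumor gave 252 (without the N42 shoulder tumor) to 1348 (without Zelda). The class II genes had 0 calls in 27 of these alternatives and 1 call, Ciita at 4.15, without N215 and N25, the WT tumors with the most Ciita. Adjusted p of H2-Eb1 ranged from 0.152 to 0.828 and its estimate from 0.85 to 2.75.

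H2-Ab1, H2-Eb1 and H2-DMa kept their sign throughout. The sign reversed for H2-DMb1 per mouse (−0.037), with limma-voom (−0.41), without N42 (−0.37) and without Zelda and N25 (−0.41), for H2-Aa with limma-voom (−0.062), and for Cd74 with limma-voom (−0.20) and without N42 (−0.27). Leaving out 1 tumor moved H2-Aa from −0.17 to 1.06, Cd74 from −0.06 to 0.80, Ciita from −0.093 to 2.47 and H2-DMb1 from −0.75 to 0.52, in each case lowest without Zelda, which reversed the sign, and highest without N25. The cause was not tested.

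In the site comparison DESeq2 called 33 genes. With the mouse as a replicate block the estimates reversed for H2-Eb1 (−0.37), Ciita (1.39), H2-DMa (−0.35) and H2-DMb1 (−0.16), and 0 genes were called. Leaving out 1 tumor moved H2-DMa from −0.21 (without N43 spine) to 0.25, with −0.093 without the N42 limb, and Ciita from −1.89 to 1.76 (without N215), and left H2-Eb1 untested without N215. Depth limits Massa and Grilka, with 340 and 116 counts on the 7 genes together.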

Other observations

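Genes outside the set whose log2 CPM was most like the mean standardized level of the 7 class II genes, over the 16 tumors, were Fam117a (Pearson's r 0.90), Asb1 (0.89), Rasgef1b (0.86), Dmtn (0.85), Faah (0.84), Arap2 (0.83), H2-T23 (0.83), Alox12 (0.82) and Arrb1 (0.82). H2-T23 is a nonclassical class I gene of the same chromosome as the H2 genes of the set. Arap2 was 187 CPM in Zelda against a median of 12.1 CPM in the other 15 tumors, so that the likeness rests in part on 1 tumor. None of these genes passed the edgeR test between KO and WT, with adjusted p from 0.146 (Dmtn) to 0.794 (Rasgef1b).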
